A study of Mus musculus with 2 samples.

Results

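Splicing factors of the SR, hnRNP, SF3 and Snrp families were examined in LT-HSCs (long-term hematopoietic stem cells) of old mice with and without p38α (Mapk14), a stress-activated MAP kinase. The genes were chosen by name: every probe other than a control probe whose gene symbol started with Srsf, Sfrs, Hnrnp, Hnrp, Sf3a, Sf3b or Snrp. This gave 96 probes of 52 genes among the 22555 named genes on the array, namely 11 SR genes, 20 hnRNP genes, 9 SF3 genes and 12 Snrp genes. No probe carried the older Sfrs or Hnrp symbols.

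RNA from LT-HSCs, sorted from bone marrow of 2-year-old C57BL/6J mice as CD150+CD48-Flt3-CD34- LSK cells according to the labels (the methods add CD41-), was hybridized to 2 single-colour Agilent arrays, 1 per genotype. The p38αΔ/Δ mice carried CAG-CreERT2 and p38αflox/flox and had been given tamoxifen (TAM) at 50 to 60 weeks of age, 1 year before the sort. The p38α+/+ controls, labelled wild-type, were described in the methods as Cre(−) p38αfl/fl mice of matched age that also received TAM, so the floxed allele and the drug were common to both groups, whereas CreERT2 was carried by the deleted mice alone. CAG is a ubiquitous promoter, so that deletion was not limited to blood cells, and the number of mice behind each array was not given.

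Most introns are removed by the major spliceosome, which is built from small nuclear ribonucleoproteins (snRNPs), each a small nuclear RNA in a ring of Sm proteins with further proteins of its own. SR proteins bind exonic sequences and recruit the spliceosome through arginine- and serine-rich domains, hnRNPs coat the nascent transcript and often oppose them, and the SF3A and SF3B complexes hold the U2 snRNP at the branch point. SF3B1 and SRSF2 are among the genes most often mutated in clonal blood disorders of old age in humans.

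With 1 array per genotype there was no replicate, no test could be made, and every value below describes these 2 arrays. Signals are log2 intensities relative to the array's own 75th percentile, and a difference is the array labelled p38αΔ/Δ minus the p38α+/+ array on that scale. The brightest probe stood for a gene. The only error that could be measured was that between repeated spots of a probe within an array, which gave a median SD of 0.137 for a difference between 2 single spots over 298 repeated probes, 0.342 for signals under -2 and 0.0859 for signals of 2 or more. No splicing factor probe was itself repeated, and this error leaves out the variation between mice. The signals of the 2 Mapk14 probes, at bases 1134 and 3532 of the transcript, differed by -0.05 (2.08 and 2.03) and -0.04 (2.34 and 2.31). The sources used here do not name the deleted exons, and a probe outside the deleted part cannot check the genotype, so the second array is called by its label throughout. The study's own check of the deletion, by genomic qPCR, was not analysed here.

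Splicing factor genes were nearly level between the arrays. All 52 were well above background on both arrays, and 47 of them (90.4%) lay within 1.5-fold, against 71.7% of all 17190 genes measured. A drop of 2-fold or more on the array labelled p38αΔ/Δ was seen for 1 of the 52 genes, against 6.71% of all genes, and a 2-fold higher signal for 0 of them, against 4.1% of all genes. The median difference was -0.14, with 32 genes lower and 20 higher, and the median of all genes was -0.03, with 9003 lower and 8187 higher. Under normexp background correction, another way to subtract the background, the split was 38 lower and 14 higher with a median of -0.20, and that of all genes 7648 lower and 9544 higher with a median of 0.05. In bulk samples, fewer cells of a type and less RNA per cell cannot be told apart.

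Signal bears on these shares, because dim probes scatter more. Signals above the 75th percentile were found for 47 of the 52 genes in p38α+/+ LT-HSCs and for 46 in those labelled p38αΔ/Δ, against 44.6% and 43.8% of all genes measured. Among genes with a mean log2 signal above 0, a comparison added after values had been seen, 93.6% of 47 splicing factor genes and 85.3% of 7553 genes lay within 1.5-fold. In that range the median difference was -0.15 for the splicing factor genes and -0.08 for all genes, and 2.44% of all genes were beyond 2-fold (1.5% lower and 0.94% higher), where 0 of the splicing factor genes were. The splicing factor genes thus lay among bright genes whose differences were small in general.

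**Figure D1:**
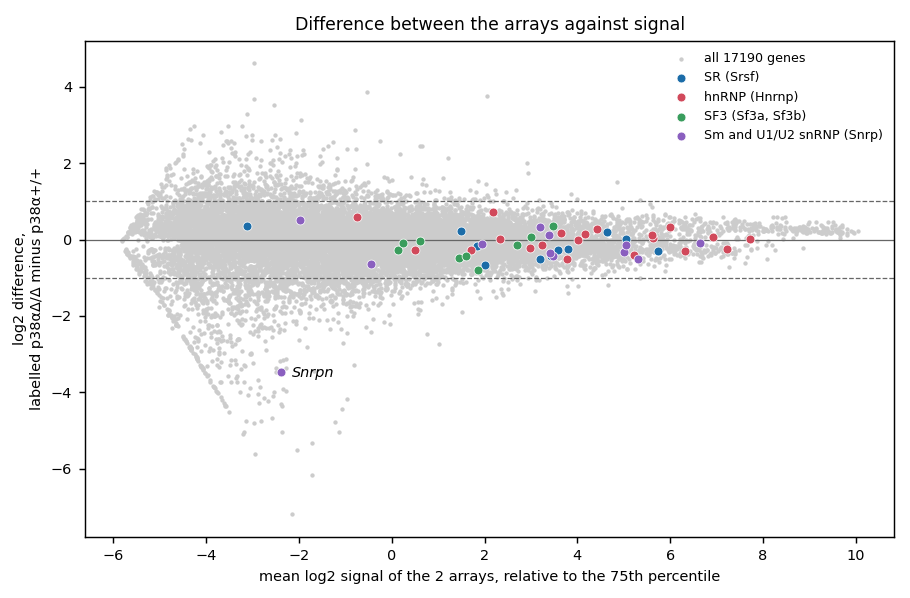
Each point is a gene, placed by its mean log2 signal over the 2 arrays (x) and its log2 difference, labelled p38αΔ/Δ minus p38α+/+ (y). Grey points are all 17190 genes, coloured points the 52 splicing factor genes by family, and dashed lines mark 2-fold; Snrpn is the 1 coloured point outside the lines.

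Cell type markers also differed between the arrays. Of 18 HSC genes, among them Procr, Slamf1 and Mecom, 16 were lower and 2 higher on the array labelled p38αΔ/Δ, and their summed signal was 233 and 186 in units of the 75th percentile of each array. Neutrophil and monocyte genes were higher for 10 of 15 and lower for 5 (sums 426 and 579), from Elane at -1.41 to Ltf at 2.23. Most of these sums came from Csf3r (7.69 and 8.13) and Itgam (7.50 and 7.92). B cell genes were higher for 9 of 9 (7.50 and 23.0), with 2 of the 9 too dim to be called above background in p38α+/+ LT-HSCs. Jchain, the joining chain of secreted antibodies (0.18 and 3.93), made up most of the B cell sum only on the array labelled p38αΔ/Δ. The other 8 genes summed to 6.36 and 7.78. T and NK cell genes were higher for 6 of 8 (sums 20.6 and 24.8), erythroid genes for 7 of 10 (94.3 and 90.8) and megakaryocyte genes for 6 of 9 (29.8 and 31.6). Of the megakaryocyte genes, 1 was at background in p38α+/+ LT-HSCs. Against the direction of its list, the T cell kinase Zap70 gave 1.15 and -3.28 (21.6-fold lower). The other 7 T and NK cell genes summed to 18.3 and 24.7. Jchain, Zap70, Csf3r, Itgam, Elane and Ltf were named after their values had been seen. The part of these shifts in the splicing factor values was not tested. The medians of the 4 families were -0.24 for SR, 0.02 for hnRNP, -0.15 for SF3 and -0.24 for Snrp. The SR and hnRNP medians depended on how the probes of a gene were joined: that of SR was -0.075 when they were averaged, and that of hnRNP was -0.18 when the dimmest was read.

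**Figure D2:**
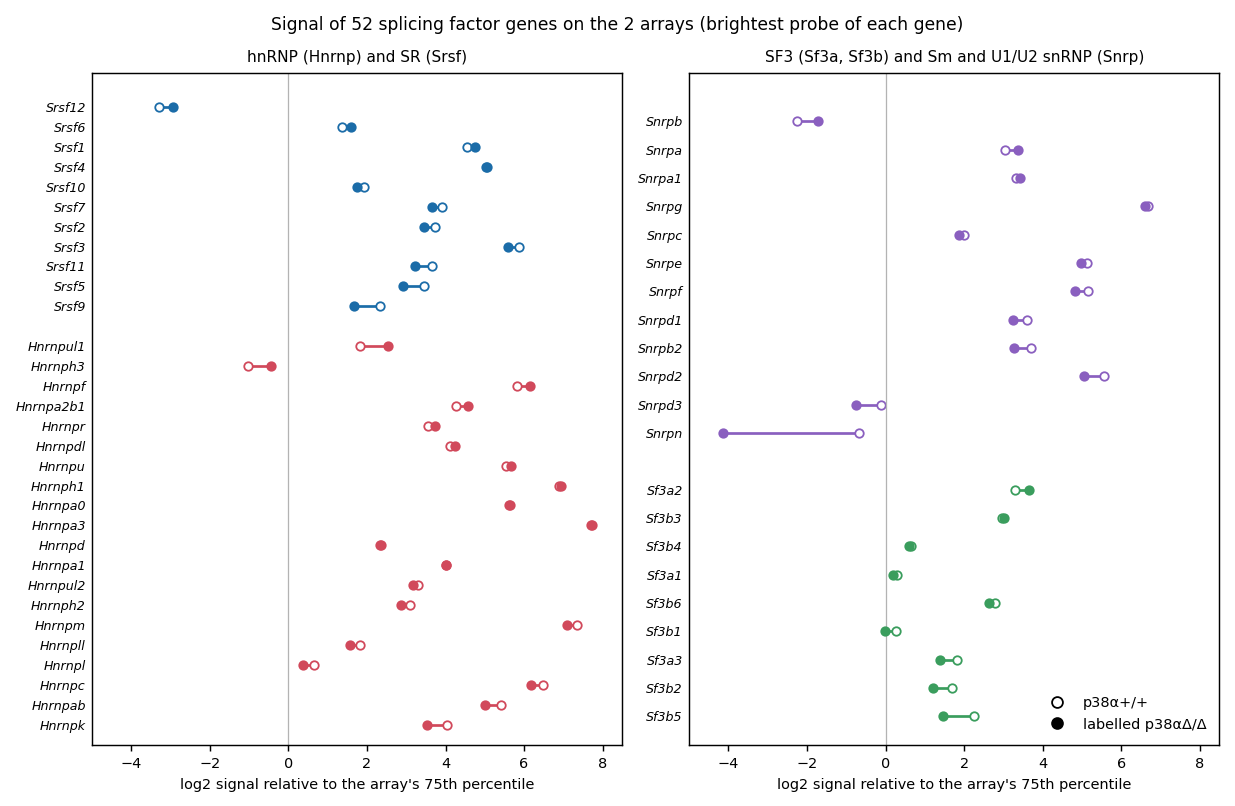
Log2 signal of the 52 genes relative to the array's 75th percentile (x), with 1 line per gene and the genes ordered by difference within each family. Open circles are the p38α+/+ array and filled circles the array labelled p38αΔ/Δ, and only Snrpn has its circles more than 1 log2 unit apart; brightness also depends on the probe, so signals are to be compared between arrays and not between genes.

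Of the 11 SR genes, 7 were lower on the array labelled p38αΔ/Δ and 4 higher, between -0.67 and 0.36. Srsf9, a regulator of splice site choice, had the lowest difference at -0.67, from 2.34 on the p38α+/+ array to 1.67. It was the only SR gene beyond 1.5-fold (1.59-fold lower) and had 1 probe. Srsf5 gave 3.44 and 2.92 (-0.52).

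The best known SR proteins were closer to level. Srsf1, a founding member of the family that serves both constitutive and alternative splicing, gave 4.54 and 4.74 (0.20), and its 3 probes lay between -0.20 and 0.20. Srsf2, which marks nuclear speckles, gave 3.73 and 3.46 (-0.27), and its 3 probes lay between -0.27 and 0.03. Srsf3, the smallest SR protein and also an mRNA export adaptor, gave 5.88 and 5.58 (-0.30), and all 3 of its probes were lower, between -0.36 and -0.21. The error between spots of this brightness is below these differences. However, the probes of Srsf1 and of Srsf2 lay on both sides of 0, and no spread between mice is known. At the upper end were Srsf6 at 0.24 (1.37 and 1.60) and Srsf12 at 0.36 (-3.29 and -2.94). Srsf12, a splicing repressor that opposes other SR proteins, was so dim that its difference is of the size of the spot error there, and the other probe of each of these genes lay on the other side of 0 (-0.23 for Srsf6 and -0.38 for Srsf12). Apart from Srsf11, described next, the remaining 3 SR genes (Srsf4, Srsf7 and Srsf10 by symbol) had differences between -0.24 and 0.03.

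Srsf11, which encodes a protein that interacts with U2AF, was the SR gene whose probes disagreed most. Its brightest probe gave 3.65 and 3.23 (-0.42), while the probes at bases 520 and 1176 of other transcript models gave 1.46 and 2.23 (0.78) and -3.26 and -1.95 (1.31). The last of these was the only one of 95 splicing factor probes beyond 2-fold upwards, against 3.45% of all probes, and its difference was 0.46 under normexp background correction. The 3 probes lie on the minus strand of chromosome 3 (build mm9) at separate places, and the first 30 of their 60 bases are printed because their signals differed in opposite directions.
Srsf11 base 520 (chr3:157689536-157689595): ccaagtattactttgaaacccttgttatac
Srsf11 base 1176 (chr3:157686446-157686505): gtcagcaaaagccctactcttgattccaac
Srsf11 brightest, base 1193 (chr3:157675744-157675803): atcccctaaaaagcccaggtctcctaaaag

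The hnRNP genes were balanced around 0, with 9 lower and 11 higher and differences from -0.51 to 0.73. The family median was on the other side of 0 under normexp background correction (-0.04) and when probes were averaged (-0.06), as with the dimmest probe. Hnrnpk, a protein that binds C-rich RNA and DNA, had the lowest difference, with 4.03 and 3.53 (-0.51), and its 3 probes all lay below 0. Hnrnpab gave 5.42 and 5.02 (-0.41). Hnrnpc, whose tetramers package nascent RNA and bind runs of U, gave 6.48 and 6.17 (-0.31) at its brightest probe and 1.46 and 0.40 (-1.05) at base 259. That second probe and 1 Snrpn probe were the 2 of 95 splicing factor probes beyond 2-fold downwards, against 5.92% of all probes. With the Srsf11 probe described above, 3 were beyond 2-fold in either direction, against 9.36%. The Hnrnpc probe at base 259 was at -0.89 under normexp background correction.

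Among the abundant hnRNPs that define the family, Hnrnpa1, an antagonist of SR proteins at splice sites, gave 4.02 and 4.00 (-0.01), and its direction flipped under 3 of 6 alternative scalings. Its other probe gave -0.49. Hnrnpa2b1, the partner of Hnrnpa1 in core hnRNP particles, was slightly higher at all 3 probes, with 4.27 and 4.56 (0.29) at the brightest. Hnrnpu, which links RNA to the nuclear scaffold, gave 5.54 and 5.67 (0.13).

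The highest hnRNP differences were those of Hnrnpul1, Hnrnph3 and Hnrnpf. Hnrnpf, which binds G-rich runs, gave 5.83 and 6.16 (0.33) at its brightest probe but -0.63 at its other probe. Hnrnph3 gave -1.04 and -0.46 (0.58, or 0.37 under normexp background correction), and its other probe gave 0.16. The remaining 11 hnRNP genes lay between -0.28 and 0.18, and 4 of them between 0.02 and 0.07. Hnrnpa3, named after its values had been seen because it had the most probes, gave 7.71 and 7.74 (0.02) at the brightest and from -0.53 to 0.37 over 7 probes.

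Hnrnpul1, a nuclear RNA-binding protein also recruited to DNA breaks, had the highest difference of the 52 genes, 1.82 and 2.54 (0.73, or 1.66-fold). Its second probe, designed on another transcript variant, had the same signal of 1.82 in p38α+/+ LT-HSCs but 1.28 on the array labelled p38αΔ/Δ (-0.54). The mean of both probes was 0.09, so that the gene's place at the top rested on which probe was read. Both probes lie on the minus strand of chromosome 7 (mm9), and the first 30 bases of each are printed because their signals differed in opposite directions, although no annotation was used here to tell whether either is found in 1 variant alone.
Hnrnpul1 brightest, base 1082 (chr7:26521707-26521766): ggtgtgagccattataccagcaaggagctt
Hnrnpul1 base 2812 (chr7:26507059-26507118): ctcttcatacaggccaggcattttcctctc

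In the SF3 family 7 of 9 genes were lower and 2 higher. Sf3b5, a small SF3B subunit, had the lowest difference, 2.26 and 1.46 (-0.80, 1.74-fold lower), and its other probe gave -0.43. Sf3b2 gave 1.69 and 1.21 (-0.48), and Sf3a3 gave 1.81 and 1.38 (-0.43). Sf3b1, the large subunit that clamps the branch point, gave 0.27 and -0.01 (-0.28). Sf3a1, which contacts U1 and U2 components, was close to level with 0.29 and 0.20 (-0.09).

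The exceptions in this family were Sf3a2 and Sf3b3. Sf3a2, a zinc finger subunit of SF3A, gave 3.29 and 3.65 (0.36), higher under every scaling (0.26 to 0.45). Sf3b3 gave 2.96 and 3.03 (0.07), which turned to -0.04 under normexp background correction. The 2 genes not described (Sf3b4 and Sf3b6) were at -0.04 and -0.15. SF3A thus held genes on both sides of 0, and SF3B did so except under normexp background correction.

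Of the 12 Snrp genes, 9 were lower and 3 higher, with a median of -0.24, or -0.15 without Snrpn. Among the Sm ring proteins common to the spliceosomal snRNPs, Snrpd2 gave 5.56 and 5.04 (-0.52), and all 3 of its probes lay between -0.52 and -0.39. Snrpd3 gave -0.12 and -0.75 (-0.63), reduced to -0.33 under normexp background correction. Snrpe gave 5.13 and 4.98 (-0.15). Snrpb, which encodes the SmB proteins, was higher, with -2.24 and -1.73 (0.52), or 0.29 under normexp background correction. It was read from 1 dim probe, with intensities of 30.3 and 34.8, against 6771 and 3790 for Snrpd2.

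The genes of proteins particular to 1 snRNP were on both sides of 0. Snrpb2 of the U2 snRNP and Snrpc of the U1 snRNP, which the naming rule leaves out, were at -0.43 and -0.13. Snrpa, the protein A of the U1 snRNP, which binds a loop of its RNA, gave 3.03 and 3.36 (0.33). Snrpa1, a protein of the U2 snRNP, gave 3.33 and 3.44 (0.11). The other 3 Snrp genes, all of the Sm ring, had differences between -0.36 and -0.08.

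Snrpa1 and Snrpd2 each had a pair of overlapping probes, which give a measure of how well a difference repeats within an array pair. The Snrpa1 probes shared 53 of 60 bases and had differences of 0.14 and 0.11, a gap of 0.0363. The Snrpd2 pair shared 54 bases and gave -0.43 and -0.39, a gap of 0.0402. The first 30 bases of the Snrpa1 probes (plus strand, mm9) are printed with the 23 shared bases within them in capitals, to show that the gap is that of nearly the same target.
Snrpa1 base 1183 (chr7:73219407-73219466): aaccttgAAATAACAATGCCAGTTTTCTAC
Snrpa1 brightest, base 1190 (chr7:73219414-73219473): AAATAACAATGCCAGTTTTCTACaaatggt

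Snrpn was the 1 splicing factor gene beyond 2-fold. It encodes SmN, a relative of SmB that is known from brain, is expressed from the paternal allele only and shares its transcript with Snurf. Its brightest probe gave -0.67 and -4.13 (-3.46, 11.0-fold lower), which ranked 61 of 17190 genes from the lowest difference. The intensity behind these values was 90.4 in p38α+/+ LT-HSCs and 6.58 on the array labelled p38αΔ/Δ, where the dimmest probe well above background had 4.19. Under normexp background correction the difference was -1.13, or 2.19-fold lower.

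The 3 Snrpn probes did not give the same picture. The probe at base 572, on another transcript model, gave -2.57 and -3.40 (-0.83, or -0.04 under normexp background correction). The probe at base 1978, in the same transcript model as the brightest, gave -4.12 and -3.67 (0.45). Of these 3 probes only that at base 411 was beyond 2-fold, and on the array labelled p38αΔ/Δ their intensities were all low, 6.58, 10.9 and 9.02 in order of position. Their first 30 bases (minus strand of chromosome 7, mm9) show 3 distinct stretches of the gene.
Snrpn brightest, base 411 (chr7:67140293-67140352): acaccaagaggtggttaaagcagtattgca
Snrpn base 572 (chr7:67132330-67132389): caagatgggagaatcttcattggcaccttc
Snrpn base 1978 (chr7:67127426-67127485): cagacatctatcatgtactgggtctatttt

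Disagreement of this size was seen for few splicing factor genes. Of 29 splicing factor genes with more than 1 probe well above background on both arrays, 19 had all probes on the same side of 0 and 10 had probes on both sides. The range of a gene's probes had a median of 0.346, was under 0.5 for 21 genes and reached 1 or more for 3, which were Snrpn (3.91), Srsf11 (1.73) and Hnrnpul1 (1.27). The remaining genes had 1 such probe, and the second Hnrnpa0 probe was too dim to be measured on either array.

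**Figure D3:**
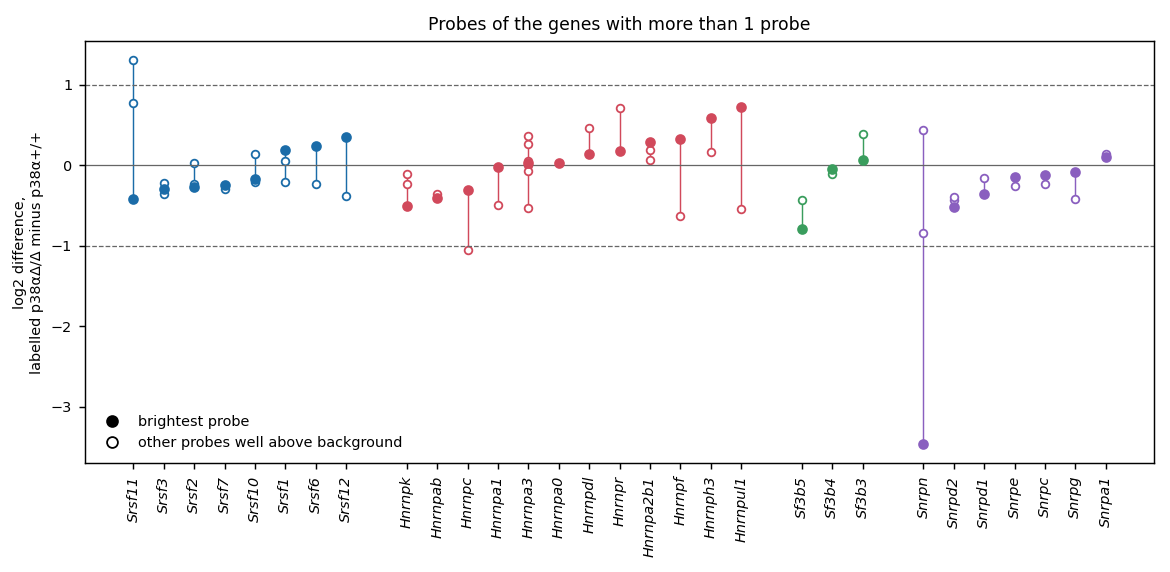
Log2 difference, labelled p38αΔ/Δ minus p38α+/+ (y), of each probe well above background on both arrays, for the genes with more than 1 probe (x, by family). Filled circles are the brightest probe, open circles the others, and dashed lines mark 2-fold; the longest lines are those of Snrpn, Srsf11 and Hnrnpul1.

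The place of a probe in its transcript was examined because RNA quality and priming act along it. Over all genes with 2 probes of 1 transcript at least 200 bases apart, the 5′ probe had the lower difference in 61.0% of 2779 transcripts, with a median 5′ minus 3′ gap of -0.17. For splicing factor genes it was lower in 8 of 17 transcripts (47.1%), with a median gap of 0.05. The part of probe position in single values such as the Snrpn probe at base 411 or the Hnrnpc probe at base 259 was not tested.

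Other genes of the splicing pathway were read from 6 lists of 128 measured genes, of which 111 (86.7%) lay within 1.5-fold. For the core spliceosome outside the 4 families, 34 of 45 genes (75.6%) were lower and 11 higher, where 52.4% of all genes and 58.1% of those with a mean signal above 0 were lower. The median of this list was -0.24, with none beyond 2-fold and 41 of 45 within 1.5-fold, but -0.14 when a gene's probes were averaged and -0.12 with the dimmest probe. The extremes were Slu7, a second-step factor, at -0.84, the U5 GTPase Eftud2 at -0.81, the tri-snRNP protein Sart1 at 0.46 and the helicase Ddx46 at 0.42. hnRNPs under other names had a median of -0.09 (6 lower, 5 higher), which turned to 0.0719 when probes were averaged, with Raly at -0.34, Tardbp at -0.30 and Syncrip at 0.30, and none beyond 2-fold. SR-related proteins and the kinases that phosphorylate SR proteins had a median of 0.02 (-0.07 under normexp background correction), with 11 lower and 13 higher. None of them was beyond 2-fold. The kinases Srpk2, Clk3 and Clk4 were at -0.90, -0.58 and 0.41, and the SR-related Pnisr was at 0.50. Srpk2 was dim, with signals of -2.35 and -3.25.

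Over all 6 lists, 5 of 128 genes (3.91%) were beyond 2-fold, 2 lower and 3 higher, against 10.8% of all genes. All of them were in the remaining 3 lists. These were 2 of 9 minor spliceosome genes, 2 of 13 genes of the SMN complex and Sm assembly, and 1 of 26 regulators of alternative splicing. Smn1, the core of the complex that loads Sm rings onto small nuclear RNA, gave 1.95 and 0.45 (-1.497, 2.82-fold lower, and -1.30 under normexp background correction), but its other probe gave -0.02. Its complex and the Sm assembly genes had a median of -0.09 (8 of 13 lower), with Gemin7 at -0.53, Gemin6 at 0.42 and Gemin8 at 1.15. Gemin8 was at 0.63 under normexp background correction and at 0.39 at its other probe. In the minor spliceosome, which removes the rare U12-type introns, 7 of 9 genes were lower (median -0.15). Only 5 of the 9 (55.6%) lay within 1.5-fold, against 71.7% of all genes. There Zmat5 was at -1.18 (-0.10 under normexp background correction), Zrsr1 at -0.94, Rnpc3 at 0.42 and Zrsr2 at 1.11 (0.74 under normexp background correction). The probes of Zrsr2, which recognizes 3′ splice sites, ran from -0.50 to 1.11. Regulators of alternative splicing had a median of 0.05 (12 lower and 14 higher), or -0.04 under normexp background correction. Their extremes were Sfpq at -0.32, Mbnl3 at -0.31, and the epithelial regulators Esrp2 at 0.97 and Esrp1 at 1.09. Esrp2 was dim, with signals of -3.55 and -2.58. Esrp1 was at 0.76 under normexp background correction and at 0.04 at its other probe. Of the 5 genes beyond 2-fold, only Smn1 was so under normexp background correction.

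**Figure D4:**
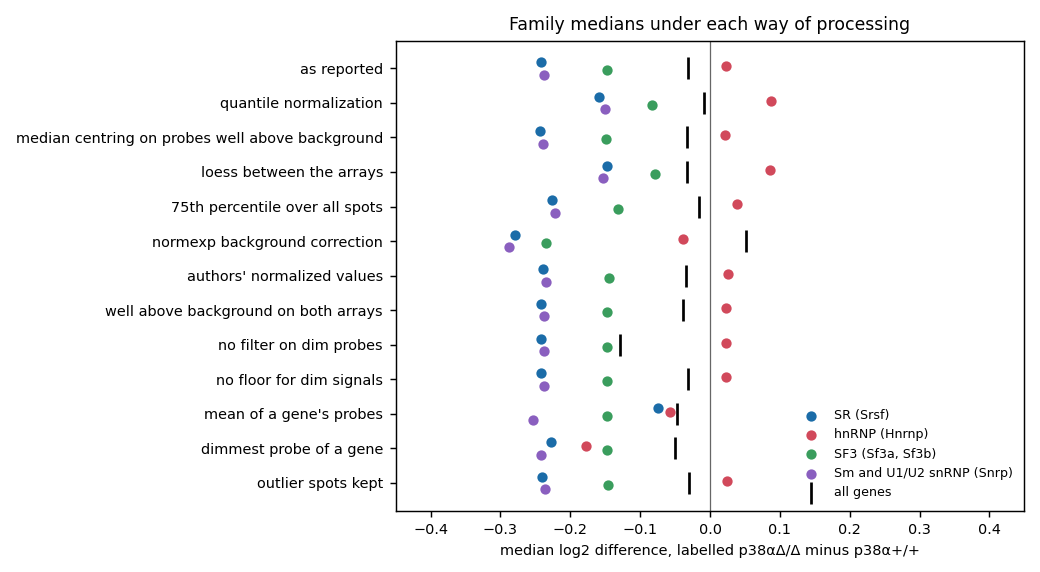
Median log2 difference of each family, labelled p38αΔ/Δ minus p38α+/+ (x), as reported and under 12 other ways of processing (y); coloured points are the families and black ticks all genes. The SR, SF3 and Snrp medians lie below 0 throughout, while the hnRNP median lies on both sides of 0.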

How the data were processed

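The authors deposited, per array, scanner intensity values made with Agilent Feature Extraction 11.5.1.1 (submitters' processing notes), background-subtracted and not normalized between arrays, and a second table with log2 values of 35795 probes, normalized. Each column of that deposited log2 table equals the log2 intensity minus 1 constant (7.16 and 6.84; column medians -0.79 and -0.79). Probe coordinates are those of build mm9.

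Control spots and outlier spots were left out (19 of 55681 probes lost), log2 spots of a probe averaged, and the array's 75th percentile subtracted. The brightest probe stood for a gene, and a gene entered if that probe was well above background in p38α+/+, in p38αΔ/Δ or in both. Dimmer sides were set to each array's lowest signal well above background (-4.65 and -4.78). Probes well above background numbered 37789 (67.9%) and 38425 (69.0%), and 0 spots were saturated. Precision is limited by the number of arrays.

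Genes were named by a rule: in each family the 3 highest and 3 lowest differences, members beyond 2-fold, members with a probe range of 1 or more, and 13 listed genes, plus the 2 highest and lowest of each other list and Mapk14. The value of 1 gene that the rule names is not reported here. The members, the lists and the rule were chosen with earlier results of these data known. The 12 alternatives included 6 scalings or background corrections (loess span 0.3, normexp offset 50). Calculations were tested on simulated data. R 4.3.3 with limma 3.58.1 and Python 3.11.15 with pandas 2.3.3, numpy 2.4.6, statsmodels 0.14.6 and matplotlib 3.10.9 were used.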

Additional observations from a re-analysis of the deposited data

How the results depend on the processing

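With 1 array per genotype no replicate could be left out, and no spread between mice could be given. No paired analysis was possible because each genotype had 1 array. The only yardstick for a shift was 0.137, the median SD of a difference between 2 single spots, which is too coarse to call a median of many genes stable, so ranges over the 12 alternatives are given. The median of the 52 genes ran from -0.23 with the dimmest probe to -0.07 after loess, that of SR from -0.28 to -0.075, hnRNP from -0.18 to 0.09, SF3 from -0.24 to -0.08 and Snrp from -0.29 to -0.15. Of the other lists, the core spliceosome ran from -0.24 to -0.12, the minor spliceosome from -0.27 to -0.06, hnRNPs under other names from -0.15 to 0.11, SR-related proteins from -0.07 to 0.06, regulators from -0.04 to 0.13 and the SMN list from -0.24 to -0.06. Shifts beyond 0.137 came from joining probes: with their mean, SR was at -0.075 and hnRNPs under other names at 0.0719, and with the dimmest probe hnRNP was at -0.18, hnRNPs under other names at 0.11 and the SMN list at -0.24. With the dimmest probe 1 splicing factor (Srsf11) was at least 2-fold higher, and Snrpn reversed to 0.45, within a range of -3.55 to 0.45. The 1 gene at least 2-fold lower was then Hnrnpc. The brighter Mapk14 probe turned to 0.02 under quantile normalization and 0.03 after loess.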

Other observations

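Snrpn lies in an imprinted cluster on chromosome 7, and the probes of 5 other genes of that cluster were read after its value had been seen. Mkrn3, also expressed from the paternal allele, was lower at both probes (-1.18 and -1.25), which became -0.08 and -0.21 under normexp background correction. Ndn (0.46) and Magel2 (0.36), paternally expressed as well, were higher, and were at 0.34 and 0.24 under normexp background correction. Peg12 gave -0.27 and -0.20, which became -0.14 and 0.05 under that correction. Ube3a, which is biallelic outside neurons, gave 0.00 at its brighter probe and 1.21 at its dimmer one. Under normexp background correction these were -0.10 and 0.57. The cluster's genes thus lay on both sides of 0, and no test could be made of them.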
